A study of Xenopus laevis with 18 samples.

Results

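The genes described here build, load and move the cilium: axonemal dyneins and their assembly factors, intraflagellar transport (IFT) and BBSome genes, tektins, radial spokes, cilia and flagella associated proteins (CFAPs), sperm associated antigens (SPAGs), RFX transcription factors and tubulins. They were taken by gene symbol alone, from every probe set whose single annotated symbol began with dnah, dnai, dnal, ift, bbs, tekt, rsph, cfap, spag or rfx and a digit (or dnali), or with dnaaf, tuba, tubb or tubg, whatever its values. The rule gave 113 probe sets of 81 genes, of 32475 probe sets and 11303 named genes tested in all, with the homeologs (.L and .S, the copies left by the genome duplication of Xenopus laevis) kept as separate genes. It takes symbols, not functions, so tubulins and gamma tubulin complex genes of every cell's cytoskeleton are among them.

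RNA was taken from explants of the lateral marginal zone, a part of the Xenopus laevis gastrula that gives lateral mesoderm and the kidney field. Embryos received GFP mRNA alone (labelled control) or GFP with cyp26 mRNA (labelled RA-depleted), in all 4 blastomeres at the 4-cell stage. Cyp26 breaks down retinoic acid (RA), and GFP mRNA was common to both arms. Explants were cut at early gastrula. Those of the early gastrula groups were cultured for 1 h and those of the mid-gastrula groups for 3 h, both at 20 °C. The early neurula groups were cultured overnight and colder, at 14 °C. There were 18 Affymetrix arrays in 6 groups of 3, labelled as biological replicates, and nothing says what a replicate number shares. The series title names RA targets in lateral mesoderm as its subject.

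A motile cilium is built on a ring of microtubule doublets of alpha and beta tubulin around a central pair. Outer and inner dynein arms, preassembled in the cytoplasm by the DNAAF factors, slide the doublets, and radial spokes and the central pair set the pattern of the beat. Tektins and several CFAPs brace the doublets, IFT carries parts to the tip and back, and the BBSome carries membrane proteins. In Xenopus embryos the factors foxj1 and rfx2 drive motile cilia, which form on the multiciliated cells of the epidermis, in the gastrocoel roof plate, the left-right organizer, and later in the pronephros.

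The deposited values were log2 intensities between 2.5 and 14.59. Array medians ran from 5.85 to 5.91 at early gastrula and from 5.47 to 5.51 at the later stages. The injected enzyme went against the labels on its brightest probe set, cyp26a1.S Xl2.456.1.S1_at, which read 13.05 to 13.92 on the 9 arrays labelled control and 8.34 to 9.44 on the 9 labelled RA-depleted. The cyp26a1.L probe set and a dimmer cyp26a1.S probe set (Xl2.50113.2.A1_a_at) read higher under the RA-depleted label at every stage. Arms are therefore named by their labels throughout, and every direction between them rests on those labels. Of 24 probe sets of lateral mesoderm and kidney field markers, foxf1.L stood between 6.64 and 8.15 at mid-gastrula. Pax2.L (Xl2.1130.4.S1_a_at) stood between 7.94 and 8.47 at early neurula. These are examples, and without detection calls their levels do not establish which tissues the explants held. In bulk RNA, fewer cells of a type and less RNA per cell cannot be told apart. With 3 arrays a group the precision is limited, and p-values measure the spread between these arrays.

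Between early and mid-gastrula, parts of the motile axoneme rose while the gamma tubulin complex and the alpha tubulin-like tubal3.1 fell. Dnai2.S, rsph1.L, cfap161.L, cfap52.L and tekt2.S were each more than 2-fold higher after 3 h of culture than after 1 h. All explants of a stage had the same culture time, so stage was not separable from it here, and its part was not tested. With both arms together (6 against 6 arrays), 30 of the 113 probe sets were called higher and 44 lower, 65.5% in all, at a Benjamini-Hochberg adjusted p under 0.05 from limma over all probe sets. Over all 32475 probe sets 62.6% were called, 15.4% as higher and 47.2% as lower. The median log2 difference was -0.08 over the cilium genes and -0.19 over all probe sets, a general shift that depends on scaling. After repeated quantile normalization the median of all probe sets was -0.01, and after median centring 0.2, and the share of higher probe sets among all those called went from 24.6% to 46.6% and 69.4%. Both alternatives moved this step upward, so they could hardly end a rise. Rises kept under them at this step, here and below, therefore carry little further weight. All 30 higher probe sets were called higher under each of these 3 scalings, but only 17 of the 44 lower ones were called lower under each. Those 17 alone are described as fallen between these stages.

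Between mid-gastrula and early neurula, several tubulins and the radial spokes rose, and most dynein assembly factors and IFT genes fell. All early neurula explants were cultured overnight and colder than all mid-gastrula explants. Stage was therefore not separable from culture time and temperature in any comparison of early neurula with mid-gastrula. The part of culture time and temperature in these differences was not tested. Of the 6 probe sets of spag6.L, a central pair gene, 2 rose and 2 fell. In this comparison 38 probe sets were called higher and 53 lower, 80.5% in all, against 70.2% of all probe sets (39.4% higher, 30.8% lower). The median difference was -0.09 over the cilium genes and 0.07 over all probe sets. The shift of all probe sets stayed within 0.1 of 0 under the 3 scalings, which kept 35 of the 38 higher and all 53 lower calls. The arrays of the stages did not overlap for 74 of the 113 probe sets (65.5%, against 51.8% of all probe sets), and for 55 (48.7%, against 44.6%) between early and mid-gastrula. From early to mid-gastrula, 29 were higher and 30 lower within the labelled control arm and 29 and 34 within the RA-depleted arm, against 49.5% and 50.2% of all probe sets called. From mid-gastrula to early neurula, 33 were higher and 47 lower within each arm, against 59.3% and 59.1%. With the replicate number as a block, 83 probe sets were called between early and mid-gastrula (70.2% of all) and 92 between mid-gastrula and early neurula (76.1%). Same-numbered arrays of the arms deviated together within a stage, so the arrays of a stage are not fully independent. The fit without a block ignores this and the replicate block covers it only in part, so the stage p-values may be too small. The 2 comparisons share the mid-gastrula arrays, so each family's values are set side by side below without a test of their relation. Family counts below stand beside the shares of all probe sets given above and were not tested against them.

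**Figure D1:**
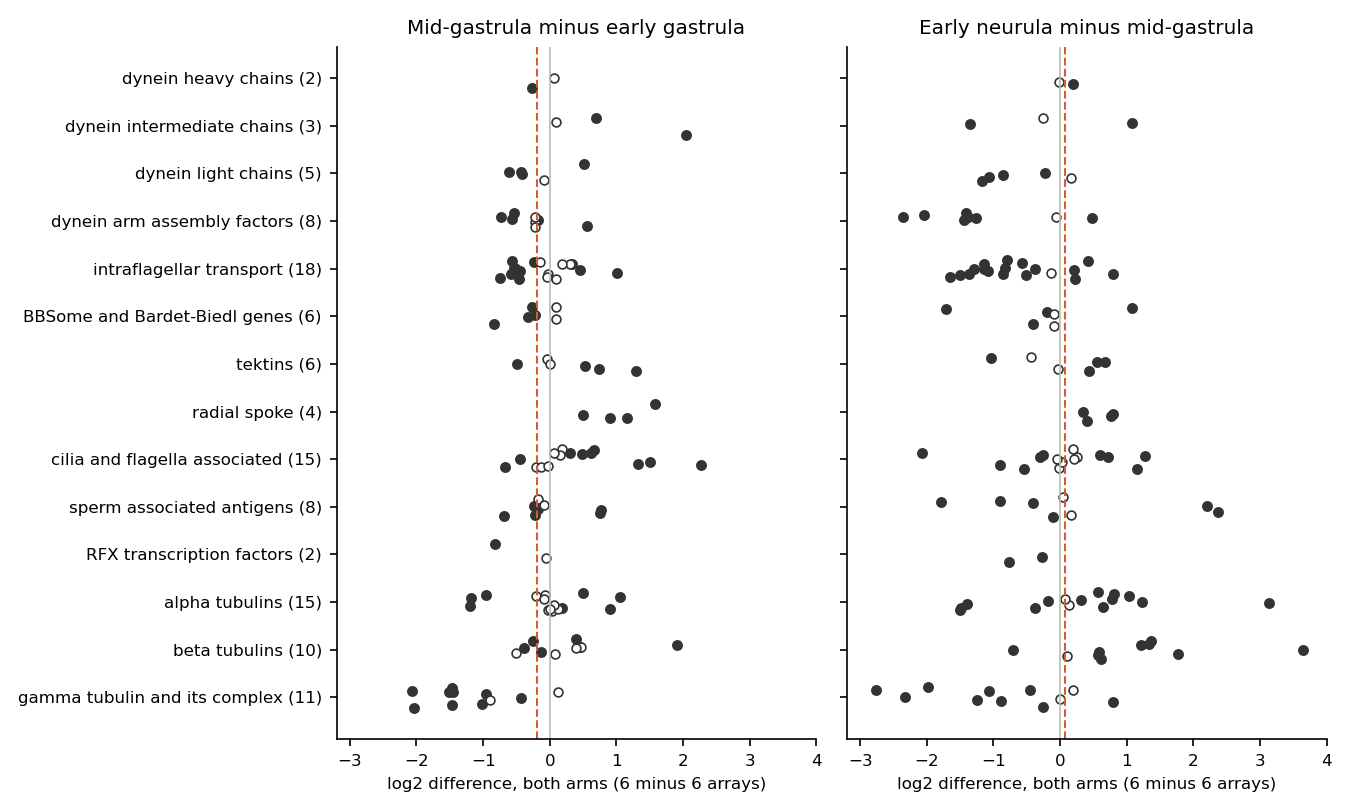
Log2 difference between stages (x axis, 6 minus 6 arrays) of every probe set, in rows by family, with the number of probe sets in brackets. Filled points passed an adjusted p of 0.05 and open points did not. The dashed line is the median of all probe sets (-0.19 on the left, 0.07 on the right), and the left panel moves to the right under the other scalings. All 4 radial spoke points lie above 0 in both panels, and 13 of 18 intraflagellar transport points are filled and below 0 on the right.

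Of the dynein arm genes measured, dnai2.S rose at both steps. The probe set of dnai2.S (Xl2.53987.1.S1_at), an intermediate chain of the outer arm, read 3.56, 3.81 and 4.02 on the early gastrula arrays labelled control and 3.9, 3.81 and 3.81 on those labelled RA-depleted. At mid-gastrula it read 6.07, 5.83 and 5.72 (control) and 5.84, 6.00 and 5.76 (RA-depleted), and at early neurula 7.01, 6.60 and 6.88 (control) and 6.94, 6.80 and 7.46 (RA-depleted). No array of a later stage overlapped with an earlier stage, and the labelled arms overlapped at each. The log2 difference was 2.05 ± 0.12 (SE, adjusted p = 8.39e-10) from early to mid-gastrula and 1.08 ± 0.12 (adjusted p = 6.05e-07) from there to early neurula. Because the early gastrula values lie near the bottom of the scale, the first of these may understate the fold.

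The other outer arm chains behaved in different ways. Dnai1.L, the partner intermediate chain, rose by 0.69 ± 0.15 to mid-gastrula and then differed by -0.25 ± 0.15, which was not called (adjusted p = 0.14). Dnal1.L, an outer arm light chain, fell by 1.07 ± 0.13 at early neurula. Both probe sets of dnah9.S, an outer arm heavy chain, stayed between 3.02 and 4.28 on all 18 arrays, at the dim end where a change would be hard to see. Among inner arm genes, the light intermediate chain dnali1.S rose by 0.51 ± 0.09 to mid-gastrula, while dnai4.S, linked to inner arm assembly, fell by 1.36 ± 0.14 at early neurula. The 3 probe sets of dnal4.S, an axonemal light chain, were all lower at early neurula, by 0.22, 0.86 and 1.18.

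The factors that preassemble dynein arms were mostly lower at early neurula. Of 8 probe sets of 5 DNAAF genes, 6 fell and 1 rose between mid-gastrula and early neurula, with a median of -1.40. Dnaaf5.S (Xl2.13416.1.S1_at) ranged from 7.31 to 7.90 (median 7.53) at early gastrula, from 6.58 to 7.51 (median 6.90) at mid-gastrula and from 4.49 to 4.72 (median 4.67) at early neurula. Its early neurula arrays all lay below every earlier array, a fall of 2.36 ± 0.15 (adjusted p = 1.25e-09). The homeolog dnaaf5.L fell by 2.04 ± 0.16 on its brightest probe set, dnaaf4.L by 1.27 ± 0.09 and 1.41 ± 0.11 on its 2 probe sets, and dnaaf3.L by 1.44 ± 0.21. Dnaaf10.L, which works with cytoplasmic chaperones, was the exception and rose by 0.56 ± 0.12 and then 0.48 ± 0.12.

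The radial spokes rose as a group at both steps. All 4 probe sets, of rsph1.L and rsph9.L in the spoke head and rsph3.L in the stalk, were called higher in both comparisons and under each scaling. At mid-gastrula the other scalings could hardly have ended these calls. Rsph1.L (Xl2.13352.1.S1_at) ranged from 5.54 to 5.68 (median 5.61) at early gastrula, from 6.88 to 7.33 (median 7.27) at mid-gastrula and from 7.31 to 8.14 (median 7.5) at early neurula. The early gastrula arrays stood apart from all others, while the later stages touched at 7.31 to 7.33. Its differences were 1.58 ± 0.13 (adjusted p = 4.88e-08) and 0.41 ± 0.13 (adjusted p = 0.00996). Rsph9.L rose by 0.90 ± 0.07 and 0.35 ± 0.07, and the brighter probe set of rsph3.L by 1.16 ± 0.19 and 0.79 ± 0.19. The dimmer probe set of rsph3.L rose by 0.50 ± 0.17 to mid-gastrula, a call that leaving out either of 2 single arrays ended.

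Tektins, the filaments inside the doublet wall, split by gene and homeolog. Tekt2.S (Xl2.15616.1.S1_at) ranged from 3.17 to 3.40 (median 3.21) at early gastrula, from 4.17 to 4.95 (median 4.48) at mid-gastrula and from 4.51 to 5.57 (median 5.25) at early neurula. It rose by 1.29 ± 0.16 (adjusted p = 4.08e-06) and 0.67 ± 0.16 (adjusted p = 0.00153), although its neurula and mid-gastrula arrays overlapped. Tekt4.S rose by 0.74 ± 0.12 and 0.55 ± 0.12, and tekt1.L by 0.53 ± 0.12 to mid-gastrula, its later difference of -0.03 not being called. Tekt3.L fell by 1.04 ± 0.20 at early neurula.

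Several CFAPs rose early and then held. Cfap161.L (Xl2.2458.1.S1_at), a protein inside the doublets, ranged from 4.68 to 5.01 (median 4.86) at early gastrula, from 6.85 to 7.58 (median 7.08) at mid-gastrula and from 7.01 to 7.89 (median 7.33) at early neurula. The early gastrula arrays lay below all others and the later stages overlapped. It rose by 2.27 ± 0.15 (adjusted p = 5.11e-09), the largest rise of the 113 probe sets at this step, and then differed by 0.26 ± 0.15 (adjusted p = 0.134). Both homeologs of cfap52, another inner doublet protein, showed the same sequence, with 1.5 ± 0.22 then -0.04 ± 0.22 for cfap52.L and 1.33 ± 0.14 then 0.20 ± 0.14 for cfap52.S, neither later value called. Cfap45.L and cfap126.L rose at both steps, by 0.49 and 0.72 and by 0.62 and 0.60.

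Other CFAPs changed late. Cfap36.L ranged from 6.04 to 6.34 (median 6.19) at mid-gastrula and from 7.0 to 7.67 (median 7.53) at early neurula, a rise of 1.28 ± 0.09 (adjusted p = 6e-09). Cfap299.L rose by 1.15 ± 0.10, from a mean of 3.28 to 4.43. Cfap298.L, needed for dynein arm assembly in zebrafish, rose by 0.66 ± 0.10 and then fell by 2.07 ± 0.10 (adjusted p = 7.18e-11), below its early gastrula level. Cfap300.L, which also acts in dynein arm assembly in humans, fell by 0.90 ± 0.13 at early neurula. Of the 15 CFAP probe sets 7 rose to mid-gastrula, against 15.4% of all probe sets called higher. At early neurula 4 rose and 5 fell, against 39.4% and 30.8% of all. The late count of rises lies below its share and that of falls near it, so late change is not a trait of the CFAPs.

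The central pair gene spag6.L rose steeply on one pair of probe sets and not on its others. Xl2.16464.1.S1_at read 3.69 to 4.36 (median 3.97) at early gastrula, 4.37 to 5.30 (median 4.66) at mid-gastrula and 6.25 to 7.93 (median 7.19) at early neurula. It did not overlap between any stages and rose by 0.77 ± 0.18 (adjusted p = 0.00192) and 2.37 ± 0.18 (adjusted p = 1.59e-08). Xl2.16464.1.S1_x_at, built on the same target and so no independent measure, rose by 0.76 and 2.21. The 4 probe sets of the series Xl2.46928 carry the same gene symbol. Of these Xl2.46928.1.A1_a_at fell by 0.68 ± 0.07 and 0.90 ± 0.07, Xl2.46928.2.A1_x_at fell by 0.40 ± 0.07 at early neurula, and the other two were not called there. Of the 22 genes with several probe sets, spag6.L had calls in both directions in both comparisons and ift46.S between early and mid-gastrula, so which probe sets report the spag6.L transcript was not settled here. Spag7.L shares only its name with the axonemal antigens, and its brighter probe set fell by 1.79 ± 0.06 at early neurula.

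**Figure D2:**
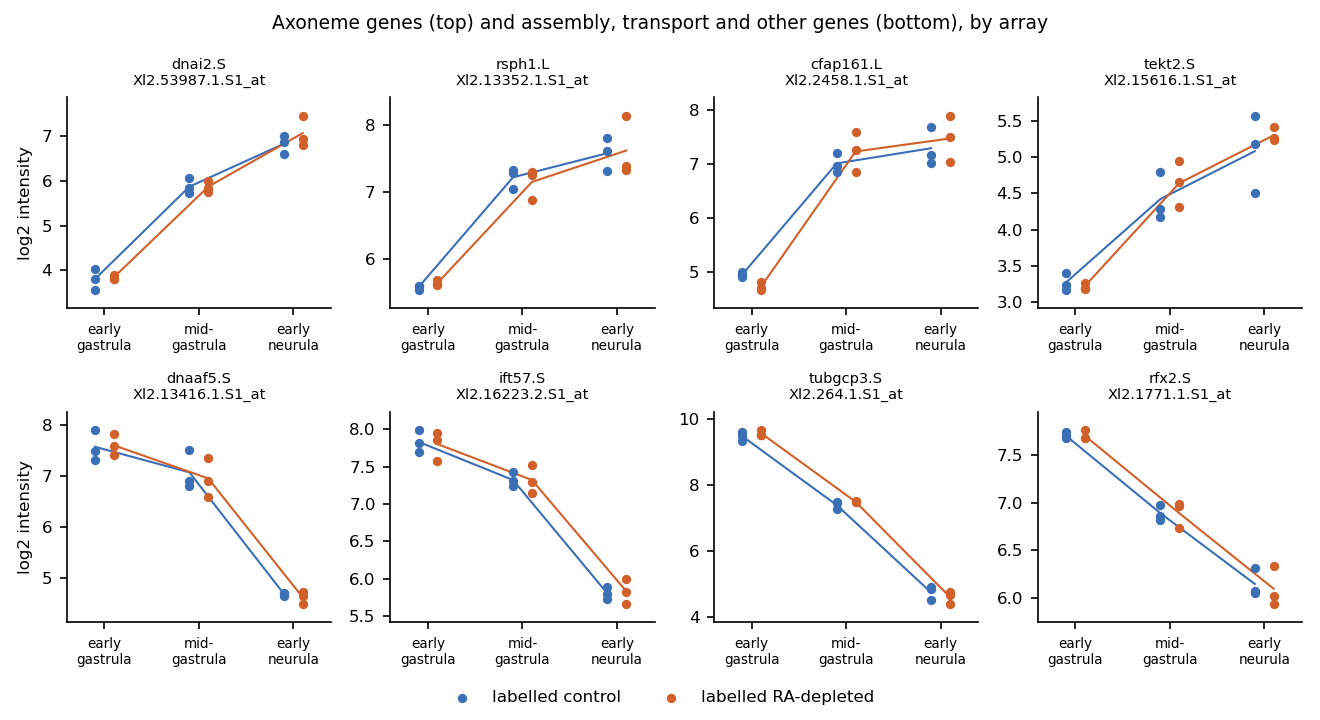
Log2 intensity (y axis) on each of the 18 arrays for 8 probe sets at the 3 stages (x axis). Points are single arrays, lines join the means of 3 arrays, blue is labelled control and orange labelled RA-depleted, and each panel has its own y range. Dnai2.S, rsph1.L, cfap161.L and tekt2.S rise in both arms, while dnaaf5.S, ift57.S, tubgcp3.S and rfx2.S fall in both.

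Transport genes were mostly lower at early neurula. Of 18 IFT probe sets of 11 genes, 13 fell and 4 were called higher (2 of these under every scaling), with a median of -0.81. Those that fell belong to IFT-B, the complex for the trip to the tip, and so do the 4 called higher. Ift43.L was the only gene of the other complex, IFT-A, taken by the symbol rule, so the complexes were not compared. Ift57.S (Xl2.16223.2.S1_at) ranged from 7.58 to 7.99 (median 7.84) at early gastrula, from 7.15 to 7.52 (median 7.30) at mid-gastrula and from 5.66 to 6.00 (median 5.80) at early neurula, where it fell by 1.51 ± 0.09 (adjusted p = 4.6e-10) with no overlap. Ift27.L fell by 1.66 ± 0.09 and 1.08 ± 0.08 on its 2 probe sets, ift80.L by 1.37 ± 0.18 and 1.15 ± 0.11, ift74.L by 1.14 ± 0.11, and all 4 probe sets of ift46.S by 0.37 to 0.82.

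A few transport genes went the other way. Ift20.S, whose product also sits at the Golgi, rose by 0.80 ± 0.09 (adjusted p = 1.15e-06) at early neurula. Ift43.L, of the returning complex IFT-A, ranged from 5.32 to 5.63 (median 5.59) at early gastrula and from 6.47 to 6.70 (median 6.57) at mid-gastrula, a rise of 1.01 ± 0.09 (adjusted p = 9.11e-08) without overlap, and then differed by -0.14 ± 0.09, not called. Ift52.L was called higher at early neurula by 0.42 ± 0.17, a call that ended without any of 7 single arrays. Among BBSome genes, bbs9.L fell by 0.83 ± 0.11 to mid-gastrula and rose by 1.08 ± 0.11 at early neurula, returning from a mean of 3.36 to 4.45. Bbs10.L, a chaperonin-like factor for BBSome assembly, fell by 1.71 ± 0.14 at early neurula. The bbs5.L and bbs7.L probe sets fell by 0.20 and 0.40, and the call of bbs5.L ended without any of 6 arrays.

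The transcription factor rfx2.S fell at both steps. Its probe set ranged from 7.68 to 7.76 (median 7.69) at early gastrula, from 6.73 to 6.99 (median 6.91) at mid-gastrula and from 5.94 to 6.34 (median 6.07) at early neurula, with no overlap between stages. The falls were of 0.82 ± 0.07 (adjusted p = 1.68e-07) and 0.76 ± 0.07 (adjusted p = 2.28e-07). The probe set of rfx5.L, known in humans for regulating MHC class II genes, fell by 0.27 ± 0.06 at early neurula.

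Tubulin and gamma tubulin complex genes held the largest rises and falls of the 113 probe sets at early neurula. Among beta tubulins 8 of 10 probe sets rose at early neurula (median 0.92), and among alpha tubulins 8 of 15 rose and 5 fell (median 0.32). Tubulin paralogs and homeologs are close in sequence, so their gene names are uncertain. Over all families, 16 of the 113 probe sets carry a suffix for probes shared between transcripts, of the same gene or of others. Tubb6.S read 6.08, 6.56 and 6.12 (control) and 5.53, 6.39 and 5.7 (RA-depleted) at mid-gastrula, and 10.08, 9.52 and 10.03 (control) and 9.63, 9.25 and 9.70 (RA-depleted) at early neurula. The stages lay far apart, a rise of 3.64 ± 0.23 or 12.5-fold (adjusted p = 1.59e-09). Tuba8.L read 3.76 to 3.92 (median 3.79) at mid-gastrula and 5.63 to 7.53 (median 7.14) at early neurula, a rise of 3.13 ± 0.17 (adjusted p = 3.4e-10). The lowest neurula array, 5.63, was replicate 2 of the arrays labelled control.

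Further tubulins rose more gradually. Tubb2b.S, a neural beta tubulin in Xenopus, rose by 1.91 ± 0.22 to mid-gastrula and by 1.22 ± 0.22 to early neurula. Tuba5.S rose by 0.90 ± 0.06 and 1.03 ± 0.06, and tuba1cl.3.L by 1.05 ± 0.13 and 0.57 ± 0.13. The 2 probe sets of tubb4a.S rose at early neurula by 1.33 and 1.36, and the 2 of tubb.L by 0.58 and 1.77. Tubb4b.L, a beta tubulin of ciliary axonemes in mammals, rose by 0.46 ± 0.10 and 0.61 ± 0.10. The alpha tubulin-like homeologs tubal3.1.L and tubal3.1.S fell at both steps, by 1.18 ± 0.19 and 1.49 ± 0.19 for tubal3.1.L.

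Gamma tubulin and its ring complex, which nucleate microtubules at centrosomes and basal bodies, fell. Of 11 probe sets 9 were called lower at mid-gastrula, 8 of them under every scaling, and 8 were lower at early neurula. Tubgcp3.S (Xl2.264.1.S1_at) ranged from 9.32 to 9.66 (median 9.51) at early gastrula, from 7.27 to 7.52 (median 7.47) at mid-gastrula and from 4.40 to 4.90 (median 4.72) at early neurula. No array overlapped between stages, and the falls were of 2.07 ± 0.08 (adjusted p = 2.24e-11) and 2.76 ± 0.08 (adjusted p = 4.31e-13), the latter 6.78-fold. The 4 tubgcp3.S probe sets were all called lower at both steps, though leaving out either of 2 arrays ended the early neurula call of Xl2.56429.1.S1_at (-0.25 ± 0.09). The 2 probe sets of tubg1.S fell by 1.01 and 0.95 and then by 1.07 and 0.89, and tubgcp4.L fell by 1.47 ± 0.11 to mid-gastrula. Tubgcp6.L was the member that rose at early neurula, by 0.80 ± 0.14.

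Among the genes with both copies measured, homeologs often changed by different amounts. For 13 genes both copies were measured, and the stage change of .L minus that of .S was compared with an exact two-sided permutation test over 6 against 6 arrays, added after the values were seen. Of 26 such tests, 9 at early neurula and 5 at mid-gastrula passed a Benjamini-Hochberg adjusted p of 0.05 over the 26. The share over all homeolog pairs of the array was not computed, so these counts are not a trait of cilium genes. The smallest exact p this design allows is 0.00216, which adjusts to 0.00804. Same-numbered arrays deviate together, so these p-values may be too small, and a dim copy shows less change than a bright one.

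The beta tubulin tubb6 differed most, by -3.07 at early neurula (adjusted exact p = 0.00804), with 3.64 for tubb6.S and 0.57 for tubb6.L, a call of its own that ended without any of 10 arrays. Tuba8 differed by 2.82 (adjusted exact p = 0.00804), though tuba8.S never left the dim range of 2.84 to 3.41. For tubb4b the copies moved apart, 0.61 for .L and -0.70 for .S, a difference of 1.31 (adjusted exact p = 0.00804). Tekt3.L fell by 1.04 while tekt3.S rose by 0.43, a difference of -1.47 (adjusted exact p = 0.00804). Tekt2.L spread from 3.05 to 4.82 over the arrays and was called lower at early neurula only with the replicate block (-0.44, adjusted p = 0.285 without and 0.00537 with it), and its difference from tekt2.S was -1.33 at mid-gastrula (adjusted exact p = 0.039). For cfap52, tubal3.1, tuba1l and tubg1 neither step passed, the difference in tubal3.1 being 0.02 at early neurula.

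**Figure D3:**
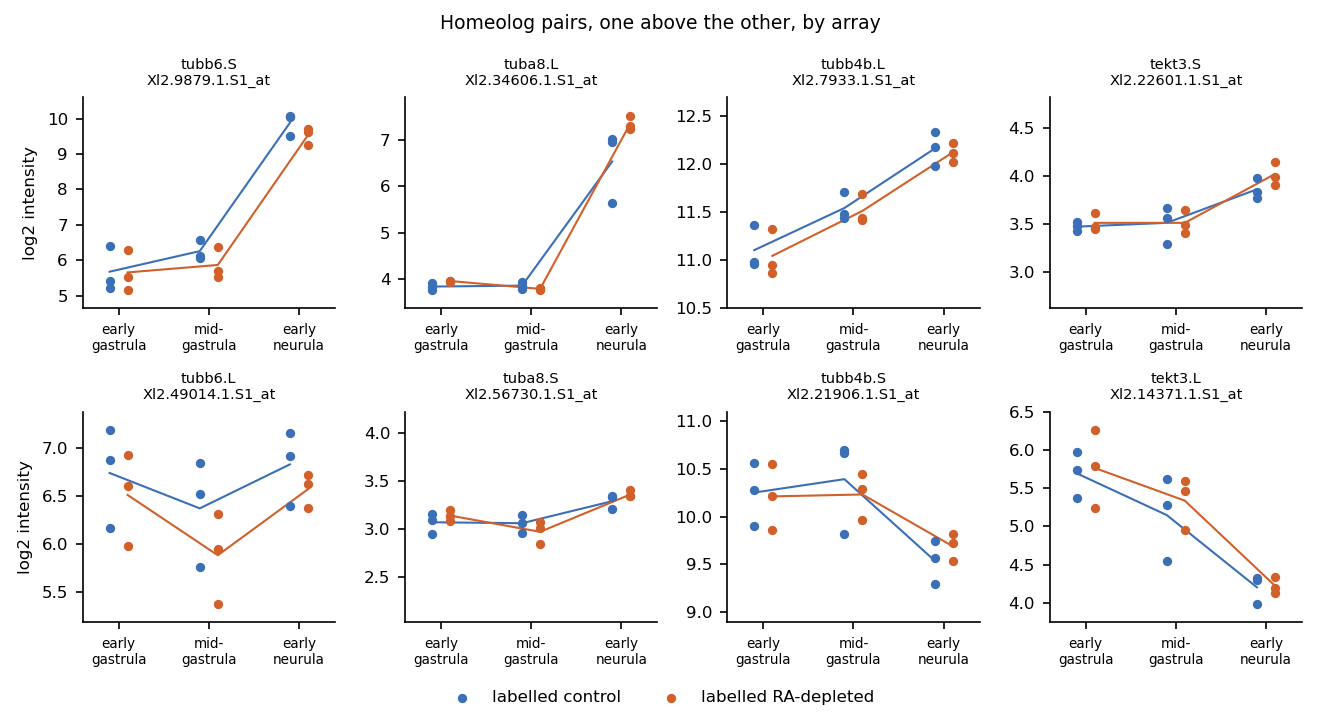
Log2 intensity (y axis) on each array at the 3 stages (x axis) for the .L and .S copies of tubb6, tuba8, tubb4b and tekt3, the copies of a gene being above each other. Points are arrays, lines join means of 3, blue is labelled control and orange labelled RA-depleted, and panels differ in y range. Tubb6.S and tuba8.L rise by 3.64 and 3.13 at early neurula while tubb6.L and tuba8.S change by 0.57 and 0.32.

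Genes outside the symbol rule were followed by lists, and the cilium lists were only partly covered by annotated probe sets. Of the listed symbols 13 of 21 were found for regulators of multiciliated cells and 22 of 63 for other axoneme and motility genes. For the ciliary base, gate and transport 27 of 56 were found, and for multiciliated cell markers 5 of 8. Regulators of multiciliated cells had 17 probe sets of 15 genes. At mid-gastrula 3 rose and 9 were called lower (6 of them under every scaling). At early neurula 9 rose (8 of them under every scaling) and 5 fell. The mid-gastrula rises were both probe sets of foxa2.L (1.62 and 1.08), a gene also listed for the roof plate below, and ccdc78.S (0.25). The early neurula rises were in ccdc78.S, cep152.L, e2f4.S, foxa2.L, foxn4.S, mcidas.S, plk4.L and stil.L. The list is thus broader than multiciliated cells. Foxj1.S, the master factor of motile cilia, ranged from 8.58 to 9.45 (median 9.22) at early gastrula, from 7.78 to 8.70 (median 8.19) at mid-gastrula and from 5.63 to 7.74 (median 6.27) at early neurula, where replicate 3 of each arm was the highest. It fell by 1.61 ± 0.34 at early neurula, and foxj1.L fell by 1.44 ± 0.17 and 0.89 ± 0.17. Ccno.L, a cyclin of centriole amplification, fell by 3.59 ± 0.35 (adjusted p = 2.31e-07) at early neurula, and ccno.S by 1.89 and 1.85. Foxn4.S, a factor of multiciliated cells, rose by 1.29 ± 0.09 at early neurula, and ccdc78.S, of the platform that multiplies centrioles, by 1.13 ± 0.09. Mcidas.S, the coactivator that starts the multiciliated programme, stayed between 3.63 and 4.21 and differed by 0.22 ± 0.09 at early neurula (adjusted p = 0.0381), and myb.S stayed between 3.00 and 3.47.

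**Figure D4:**
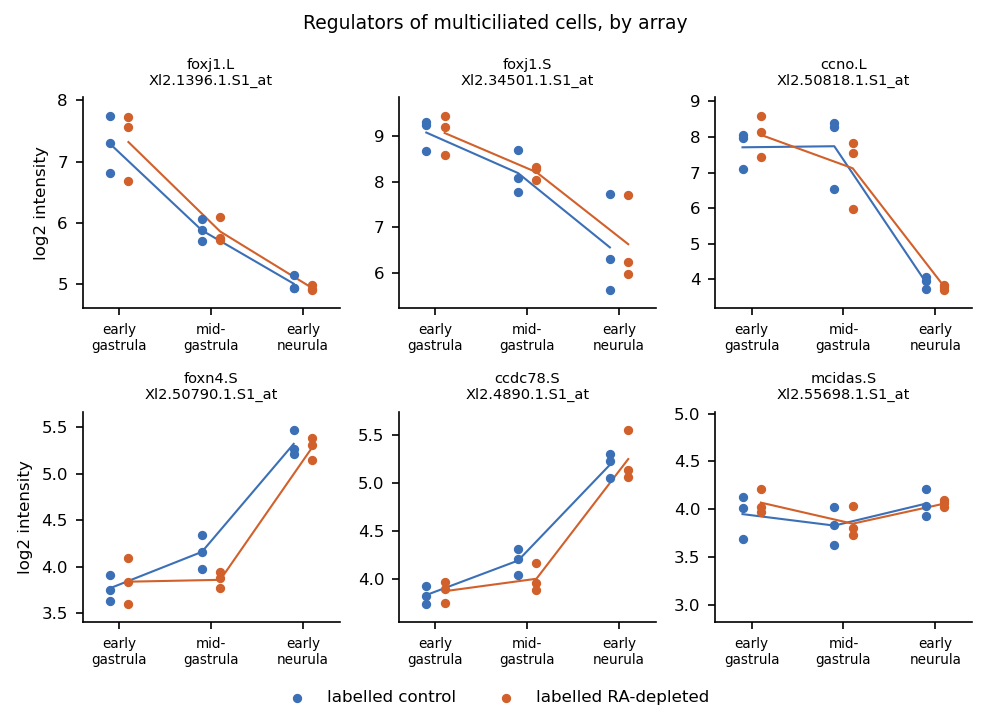
Log2 intensity (y axis) on each array at the 3 stages (x axis) for 6 probe sets of multiciliated cell regulators. Points are arrays, lines join means of 3, blue is labelled control and orange labelled RA-depleted, and panels differ in y range. Foxj1.L, foxj1.S and ccno.L end lower at early neurula, foxn4.S and ccdc78.S end higher, and mcidas.S stays between 3.63 and 4.21.

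Other axoneme and motility genes, a list of 24 probe sets, had 10 higher and 4 lower at mid-gastrula (all 10 and 1 of the 4 under every scaling) and 7 each way at early neurula. Iqca1.L, of the nexin-dynein link family, rose by 1.49 ± 0.11 and 0.80 ± 0.11 on its brighter probe set. Dydc1.L rose by 1.30 ± 0.13, enkur.L, a doublet protein, by 0.97 ± 0.15 and efcab1.S by 0.97 ± 0.12 at mid-gastrula. At early neurula meig1.S fell by 2.43 ± 0.18 and spef1.S, a central pair protein, by 1.89 ± 0.14. Genes of the ciliary base, gate and transport motors, 40 probe sets, had 1 higher and 23 lower at mid-gastrula (12 of these under every scaling). At early neurula 6 were higher (4 of these under every scaling) and 27 lower. Among these mks1.L of the transition zone fell by 2.30 ± 0.08 and the IFT motor gene kif3a.L by 1.78 ± 0.11 at early neurula.

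Markers of most other tissues differed between stages in summed linear intensity, which the brightest probe sets dominate. The epidermal sums and those of the goblet, ionocyte and small secretory list overlapped between all stages. Over all probe sets, the first step had 15.4% higher and 47.2% lower, and the second 39.4% higher and 30.8% lower. The epidermal counts lie below each of these shares, so they are not read as a movement of that list. Counts of all lists were not tested against the shares, and no share was computed for counts under every scaling. For 7 multiciliated cell probe sets the sum was 992 to 1256 in the early gastrula arrays, 433 to 877 in the mid-gastrula arrays and 170 to 338 in the early neurula arrays, with mcidas.S and myb.S dim throughout. None of the 7 was called higher and 3 were called lower at mid-gastrula (2 under every scaling). At early neurula 2 rose (1 under every scaling) and 4 fell. For 16 probe sets of the gastrocoel roof plate and axial mesoderm the sum was 17225 to 22538, then 10908 to 15959, then 2876 to 4895. Of these 3 were higher and 11 lower at mid-gastrula (8 of the lower under every scaling). At early neurula 2 were higher and 13 lower (12 of the lower under every scaling), shh.L rising at both steps. For 20 epidermal probe sets the sum was 9013 to 10498, then 8565 to 10363, then 6014 to 11473. Of these 2 were higher and 7 lower at mid-gastrula (5 of the lower under every scaling), and 4 were higher and 3 lower at early neurula.

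The widest shift was in 13 probe sets of paraxial mesoderm and muscle, whose sum was 3597 to 4540, then 5054 to 8780, then 26141 to 35057. Of these 5 were higher and 1 lower at mid-gastrula, and 8 higher and 3 lower at early neurula. For 17 neural probe sets, of which tubb2b.S is also a cilium gene by the symbol rule, the sum was 5858 to 9474, then 2771 to 4398, then 1796 to 1978. They were called 2 higher and 11 lower (6 of the lower under every scaling), then 5 higher and 5 lower. For 18 endodermal probe sets the sum was 25608 to 36203, then 22779 to 27548, then 19459 to 22745, with 1 higher and 11 lower (9 of the lower under every scaling), then 3 higher and 11 lower. For 24 probe sets of lateral mesoderm and the kidney field the sum was 3893 to 5178, then 2861 to 3245, then 4758 to 5808, with 6 higher and 10 lower (4 of the lower under every scaling), then 15 higher and 3 lower. For 15 goblet, ionocyte and small secretory cell probe sets it was 2713 to 3695, then 2634 to 4028, then 2970 to 4894, with 3 higher and 8 lower (3 of the lower under every scaling), then 5 higher and 4 lower. Under every scaling the early neurula rises held for 7 of 8 paraxial mesoderm and muscle probe sets and 2 of 3 endodermal ones. They held for 13 of 15 of lateral mesoderm and the kidney field and 4 of 5 of the secretory list. Some genes stand in more than 1 list, and the part of these markers in the stage differences was not tested.

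Between the labelled arms no cilium gene was called without a block, and a few were called with one. In the limma fit without a block, none of the 113 probe sets was called at any stage or in the mean of the stages. Nor was any called there in the tests of whether the arm difference changed between stages. Over all probe sets 0.00308% were called at early gastrula, 0.0185% at mid-gastrula (0.0154% as higher), 0.425% at early neurula (0.0523% as lower) and 0.0862% in the mean (0.0801% as higher and 0.00616% as lower). The change of the arm difference from mid-gastrula to early neurula was called for 0.0585% (0.0554% as higher). At an unadjusted p under 0.05 there were 1, 0, 9 and 2 of the cilium probe sets, and 492, 742, 1824 and 1494 of all. The largest differences in size were 0.3, 0.49 and 1.06 at the 3 stages. In simulated data this fit recovered 41.3% of log2 differences of 0.5 and 78.6% of differences of 1 at early neurula, so differences of the smaller size could go uncalled. The simulated arrays varied independently, unlike the real same-numbered arrays described next, so these rates are only a rough guide. The arms did not overlap at early neurula for 10 probe sets (8.85%), against 9.5% of all.

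Same-numbered arrays of the arms deviated together, and the fit with each pair of a stage as a block called more. Every SE printed after ± comes from the fit without a block, so it does not belong to an adjusted p with a block. The fit with pairs as blocks called 8 of the 113 probe sets at early neurula (6 higher and 2 lower in arrays labelled RA-depleted) against 4.33% of all (2.47% higher and 1.86% lower). It called 1 at mid-gastrula, as lower, against 0.188% of all (0.0801% lower). In the mean of the stages it called 4 (2 each way) against 2.85% (1.31% higher and 1.53% lower). With the replicate number as a block shared by all stages the counts were 4, 0 and 1, against 1.14%, 0.037% and 0.527% of all.

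Spag6.L led these differences. Xl2.16464.1.S1_at read 6.54, 6.25 and 6.97 on the early neurula arrays labelled control and 7.40, 7.60 and 7.93 on those labelled RA-depleted, with no overlap and each pair higher in the second, by 0.87, 1.35 and 0.97. The difference was 1.06 ± 0.26 or 2.09-fold (adjusted p = 0.135 without a block, 0.000226 with pairs as blocks). At mid-gastrula the pairs differed by -0.03, -0.06 and 0.19. The change of the arm difference between these stages was 1.03, with an adjusted p of 1 without a block and 0.00813 with pairs as blocks, and that of Xl2.16464.1.S1_x_at was 1.08. Of the Xl2.46928 probe sets the A1_s_at set was called with pairs as blocks (adjusted p = 0.573 without a block, 0.0498 with pairs), at 0.38, and was not called without any 1 pair.

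Other genes of the axoneme and tubulin families were called with a block. Cfap300.L read 4.62, 4.60 and 4.99 (control) and 5.45, 5.30 and 5.39 (RA-depleted) without overlap, a difference of 0.64 ± 0.18 (adjusted p = 0.246 without a block, 0.00973 with the replicate block, 0.00327 with pairs). Tuba8.L read 7.02, 5.63 and 6.95 (control) and 7.30, 7.25 and 7.53 (RA-depleted), and its pairs differed by 0.28, 1.62 and 0.58, so pair 2 set most of the 0.83 ± 0.25 (adjusted p = 0.326 without a block, 0.0334 with pairs). Leaving out pair 2 gave 0.43, and leaving out pair 3 ended the call (adjusted p = 0.0544). Cfap45.L was lower by 0.41 ± 0.13 in the arrays labelled RA-depleted (adjusted p = 0.378 without a block, 0.0433 with the replicate block, 0.00881 with pairs) and was not called without pair 1 (adjusted p = 0.0555). Tuba4b.L (Xl2.48328.1.S1_at) was higher by 0.44 ± 0.22 and tubb6.S lower by 0.35 ± 0.33, with adjusted p of 0.0213 and 0.0311 with pairs and 0.944 and 1 without. The call of tuba4b.L ended without pair 2 (0.31) and that of tubb6.S without any 1 pair. At mid-gastrula tubb6.L was lower by 0.49 ± 0.34 (adjusted p = 1 without a block, 0.0433 with pairs).

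**Figure D5:**
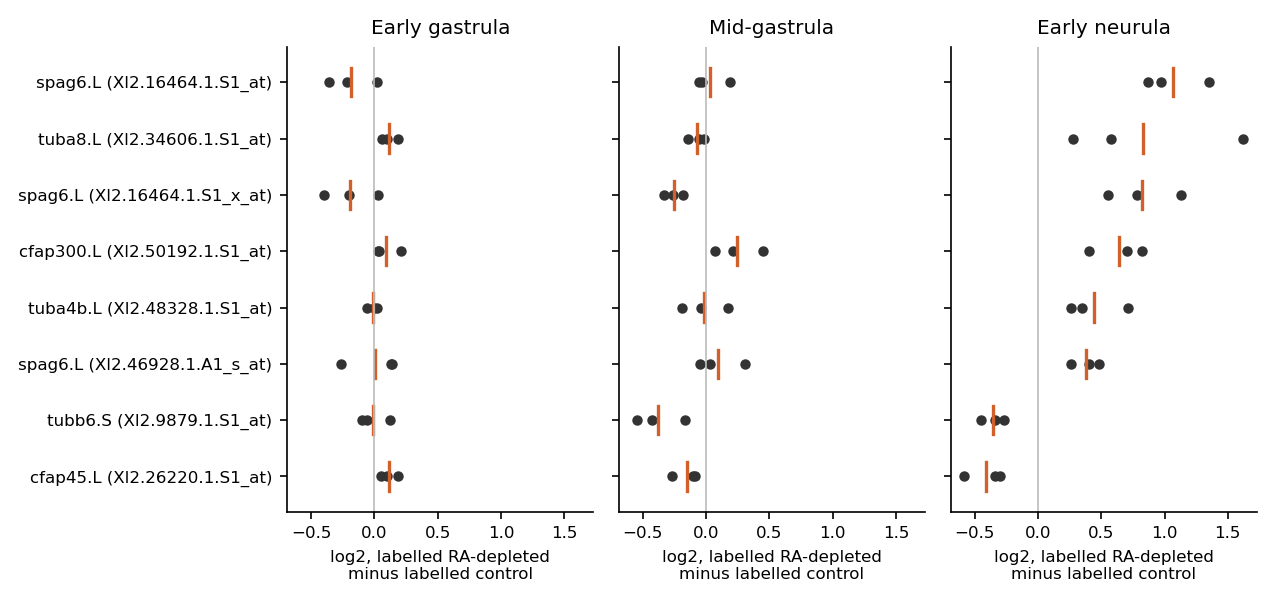
Difference within each same-numbered pair of arrays, labelled RA-depleted minus labelled control (x axis, log2), at each stage for the 8 probe sets called at early neurula with pairs as blocks. Points are the 3 pairs and bars their means. For spag6.L (Xl2.16464.1.S1_at) the early neurula points lie at 0.87, 0.97 and 1.35 and the mid-gastrula points between -0.06 and 0.19.

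Of the 24 other axoneme and motility probe sets and the 17 of multiciliated cell regulators none was called at early neurula without a block. With pairs as blocks 0 and 3 were, against 4.33% of all probe sets. The 3 were the 2 probe sets of foxa2.L (-0.66 and -0.68) and sass6.L (-0.32), named after their values were seen. At mid-gastrula ccno.L was lower under the RA-depleted label by 0.62 ± 0.50 (adjusted p = 1 without a block, 0.0125 with pairs). Of the 40 probe sets of the ciliary base and gate, nek8.S Xl2.56922.1.A1_at read higher under the RA-depleted label by 0.84 ± 0.15 (adjusted p = 0.017), and its 4 other probe sets were not called. Marker values of the arms at early neurula were as follows. Of the 24 probe sets of lateral mesoderm and the kidney field 2 were called without a block, both of lhx1.L and both higher under the RA-depleted label, by 1.21 ± 0.16 and 2.0 ± 0.27 (adjusted p = 0.00234 each), while the third lhx1.L probe set differed by 0.01. The sums of that list overlapped, at 5042 to 5732 (control) and 4758 to 5808 (RA-depleted). Epidermal markers summed to 7568 to 11473 (control) and 6014 to 7458 (RA-depleted), but the median difference of their 20 probe sets was 0.01. Of these has-rs.S was called, as lower by 0.57 ± 0.12 (adjusted p = 0.0459), and krt12.4.L, krt70.L and a dlx3.L probe set stood at 1.79, 0.70 and 0.35 the other way, not called. With pairs as blocks has-rs.S was again lower (adjusted p = 0.00156) and another dlx3.L probe set was higher, by 0.25 (adjusted p = 0.0324). Roof plate and axial markers summed to 4516 to 4895 (control) and 2876 to 4178 (RA-depleted), with a median difference of -0.07 and none of 16 called without a block. With pairs as blocks both foxa2.L probe sets, gdf3.S (-0.61, adjusted p = 0.00874) and tbxt.S (-0.55, adjusted p = 0.0414) were called lower and none higher. Goblet, ionocyte and small secretory cell markers overlapped, at 2970 to 3616 and 3568 to 4894, and so did multiciliated cell markers, at 170 to 338 and 178 to 329. With pairs as blocks foxa1.L and foxa1.S of the secretory list were called higher and none lower. They differed by 0.54 on each foxa1.L probe set (adjusted p = 0.0347 and 0.0209) and by 0.44 (adjusted p = 0.0181). Paraxial mesoderm and muscle markers overlapped too, at 26141 to 34518 and 33828 to 35057. So did neural markers (1796 to 1962 and 1879 to 1978) and endodermal markers (21311 to 22472 and 19459 to 22745). No probe set of these lists was called without a block. With pairs as blocks mespb.L was higher by 0.54 (adjusted p = 0.033) and cer1.S Xl2.368.1.S1_at lower by 0.34 (adjusted p = 0.0298). The part of these markers in the differences of spag6.L and the other genes was not tested.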

How the data were processed

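Total RNA of 18 explant samples was hybridised to Affymetrix arrays. Deposited values are on a log2 scale. Per the submitters' processing notes, the authors used RMA (background correction, quantile normalization and summary of probes) and affy. Their versions, and which arrays were normalized as 1 set, are not given in the sources used here. Of 32635 probe sets, 160 controls were left out. Symbols came from the array annotation, and all 113 matched RefSeq names.

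A mean per group was fitted to all 18 arrays with limma 3.58.1 in R 4.3.3, without a block, and p-values were adjusted over 32475 probe sets. Checked on residuals from group means, same-numbered arrays correlated between arms of a stage (r from 0.64 to 0.84) and between stages (0.36 to 0.69). Other numbers correlated negatively, which adds no evidence because residuals sum to 0 within a group. By the positive correlations replicate numbers pair the samples, as a hint from the data, and blocked calls stand beside calls they change. Homeolog tests used scipy 1.17.1. No detection calls were used. Changes of dim probe sets (log2 under 6) may be understated.

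Genes were named as any called member, the largest changes per contrast and family, and a fixed panel. The members and lists were chosen with earlier results of these data known. Promoter sequences were not analysed here.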

Additional observations from a re-analysis of the deposited data

Results flagged for a closer look

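On 2 of the 6 probe sets of spag6.L the difference between the labelled arms changed between mid-gastrula and early neurula, by a test of that change itself with pairs as blocks. The change was 1.03 for Xl2.16464.1.S1_at and 1.08 for Xl2.16464.1.S1_x_at, which share a target and count as 1 measurement. With pairs as blocks 0.921% of all probe sets were called for this change, 0.671% as higher. The count is therefore not read as a trait of cilium genes. The adjusted p was 0.00813 for each with pairs as blocks and 1 without a block. At early neurula 3 of 3 pairs read higher under the RA-depleted label on both probe sets, and at mid-gastrula 1 of 3 and 0 of 3. Leaving out any 1 early neurula pair left the change between 0.88 and 1.21, called each time. The other 4 spag6.L probe sets, of the series Xl2.46928, were not called for this change (-0.08 to 0.28), and which probe sets report the spag6.L transcript was not settled.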

How the results depend on the processing

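Without a block no arm count moved from 0 under the other alternatives run. With the replicate block, members called between the arms at early neurula were 3 higher and 1 lower, 1 was higher in the mean of the stages and 2 in the change from mid-gastrula to early neurula. Over all probe sets that block called 0.142% as higher in this change. With the replicate block within stage, members called were 6 higher and 2 lower at early neurula, 1 lower at mid-gastrula, and 2 higher and 2 lower in the mean. In the change 2 were higher, against 0.671% of all probe sets. Without pairs 1, 2 and 3 of early neurula, chosen after seeing the data, the counts higher were 6, 4 and 4 and lower 0, 1 and 2, and the change kept 2 each time. Spag6.L Xl2.46928.1.A1_s_at and tubb6.S lost their early neurula calls each time. The counts without pair 1 and without pair 3 thus include probe sets not called with all pairs. From early to mid-gastrula repeated quantile normalization gave 49 higher and 26 lower and median centring 65 and 17, since both move all values of a stage. Leaving out dim probe sets tested 76 members and gave 27 lower. Reversed under repeated quantile normalization were ift46.S Xl2.9932.1.A1_at (0.07) and bbs5.L (0.12). Reversed under median centring were dnah9.S Xl2.21651.1.S1_at (0.12), dnaaf5.L Xl2.52847.2.S1_at (0.21), ift46.S Xl2.9932.1.A1_at (0.14), bbs12.L (0.06 and 0.17), bbs5.L (0.12), spag6.L Xl2.46928.2.A1_at and A1_x_at (0.14 and 0.16), spag7.L Xl2.5182.1.A1_at (0.21) and tubb4a.S (0.14 and 0.25). Leaving out each array in turn gave 29 to 32 higher and 40 to 45 lower from early to mid-gastrula, 35 to 40 higher and 49 to 54 lower to early neurula, and 0 between the arms. It ended 8 of 74 and 8 of 91 member calls and reversed none. Promoter motifs, planned with a shorter window, were not run.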
